A study of Homo sapiens with 3 samples.

Results

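The subunits of the transcription factor NF-κB and the inhibitors that hold it back were followed in the renal cell carcinoma line TK-10 on 3 single-colour oligonucleotide arrays. The 10 genes, of 22439 named on the array, were the subunit genes NFKB1, NFKB2, RELA, RELB and REL, and the inhibitor or feedback genes NFKBIA, NFKBIB, NFKBIE, TNFAIP3 and BCL3. Their probes were found by the RefSeq accession that the array files give for each probe, which named 12 probes of the 58201 on the array, or 12 of the 31104 that could be named in this way. RELA and NFKBIB had 2 probes each and every other gene had 1. One of the NFKBIB probes (A_23_P330895) carries a noncoding transcript accession, NR_040515.

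Each array held RNA of 1 culture condition after 48 h. The vehicle array was labelled 0.1% DMSO, the second was labelled cordyceps at 750 ug/mL, and the last was labelled sunitinib at 10 uM, a receptor tyrosine kinase inhibitor used in renal cancer. All 3 conditions shared, per the labels, DMEM with fetal bovine serum (10%), penicillin-streptomycin (1%), zinc sulfate (16.7 µM), troglitazone (10 µM, an agonist of the nuclear receptor PPARγ) and nicotinamide (10 mM), whereas the study's methods list the medium without the last 3 additions. The study's text names cordycepin, a nucleoside made by Cordyceps fungi, at a dose other than that of the label, and nothing in the array files tells which of these the second array received. It is called the cordyceps array here. Whether treatment of TK-10 cells alters NF-κB and its inhibitor IκB was a question of the study. It measured their protein, the phosphorylation of IκB-α, the place of NF-κB in the cell and the activity of an NF-κB reporter gene. The phosphorylation and the place were reported for cells stimulated with TNF-α, which the array labels do not name. The arrays measure mRNA.

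With 1 array per condition there is no replicate check, and no difference below has a test. The error given with a value is the software's own error for the spot, which was 10.0% to 18.5% of the signal over the 12 probes and 3 arrays. It was combined over the pair of arrays into a 95% limit for a log2 ratio, and it leaves out any spread between cultures. Values are log2 signals relative to the 75th percentile of each array, so that 0 is the level of the probe at that percentile. Signals of different probes depend on their sequences and are not set against each other.

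NF-κB is a dimer of Rel-family proteins. In resting cells IκB proteins hold it in the cytoplasm, and on stimulation IκB kinase marks them for degradation, so that the dimer enters the nucleus. Several of its target genes encode its own subunits and inhibitors, which makes the pathway a feedback loop, and it is known in renal carcinoma for its role in survival and inflammatory gene expression.

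Matches to the motif that NF-κB binds were looked for in the promoters of the members. The sequences of RefSeq (GRCh38.p14), from 250 bases before to 50 after each listed start, were searched on both strands for the κB motif of 10 letters, with overlapping matches counted as 1 site. The motif was in 8 of 13 member promoters (61.5%) and in 3956 of all 35116 promoters (11.3%). Of the 8 member genes with an entry, 7 held it in at least 1 promoter (87.5%), against 3619 of all 27305 genes (13.3%). RELA held none in either of its promoters, the other listed promoter of NFKB1 held none, and RELB and NFKBIE had no entry. NFKB2 had 4 sites over 2 promoters, NFKBIB had 2 sites in 1 promoter, and that of BCL3 lay 2 bases after the start. A match is a description of the letters and not a site shown to be bound. The stretches around the matches of 4 members are printed because NFKB1, NFKBIA and TNFAIP3 were lower on the sunitinib array by more than their spot error, and REL is shown beside them as a member within its spot error there. NFKBIB, also lower there by its coding probe, is not printed and has a match 28 bases before a start. NFKB2 and BCL3 also held matches and were within their spot error there. Whether a match bears on the level was not tested. The match is in capitals, the strand is that of the gene, and TNFAIP3 has 2 matches close together.
NFKB1 (chr4:102501285-102501344, plus strand, match 49 bases before the start): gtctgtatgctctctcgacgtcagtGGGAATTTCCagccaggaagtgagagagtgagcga
REL (chr2:60881502-60881562, plus strand, match 47 bases before the start): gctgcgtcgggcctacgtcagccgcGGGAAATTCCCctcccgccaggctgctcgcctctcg
NFKBIA (chr14:35404796-35404855, minus strand, match 81 bases before the start): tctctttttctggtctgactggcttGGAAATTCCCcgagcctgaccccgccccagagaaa
TNFAIP3 (chr6:137867167-137867238, plus strand, matches 67 and 55 bases before the start): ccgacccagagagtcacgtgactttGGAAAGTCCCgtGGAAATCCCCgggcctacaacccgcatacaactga

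The arrays differed as a whole. The 75th percentile of the signal was 165 on the vehicle array, 138 on the cordyceps array and 78.2 on the sunitinib array, and 45.5%, 37.8% and 38.3% of probes were well above background. All 3 were on 1 slide and in 1 scan, and a bright area of 581 spots on the cordyceps array held no member probe. Of 12 renal epithelial markers with a probe, 9 were detected on all 3 arrays: PAX8, PAX2, CDH16, KRT8, KRT18, EPCAM, CDH6, LRP2 and VIM. CUBN and CA9 were detected on none. The summed relative levels of the list were 1172, 1038 and 1737 on the vehicle, cordyceps and sunitinib arrays. Most of each sum was VIM, which was 1.58-fold higher with sunitinib, so the sums say little of the other markers. Of the 10 compared with sunitinib, 6 were higher and 4 lower, with a median log2 ratio of 0.09. With cordyceps 2 of the 10 compared were past 2-fold lower, CDH16 (4.71-fold) and CDH6 (5.20-fold), and 8 were within 2-fold. With sunitinib 1 of 10 was past 2-fold lower and 9 were within 2-fold. Of 4 leukocyte markers CD14 was detected on all 3 arrays and CD3E on none, and their summed relative level was 4.85, 2.98 and 2.48 on the vehicle, cordyceps and sunitinib arrays. PTPRC in that list was 5.23-fold higher with sunitinib by the 1 measured probe of its 5. The raw signals of that probe were dim, 18.4 with vehicle, where detection began at 18.2, and 45.7 with sunitinib. CD14 was 2.84-fold lower with sunitinib. Of 3 endothelial markers CDH5 was detected on all 3 arrays and PECAM1 on none, and the sums were 1.27, 1.16 and 1.02. Of 4 fibroblast and muscle markers 3 were detected on all arrays and COL3A1 on none, and the sums were 39.7, 15.9 and 20.5. These sums join markers that moved in opposite directions. COL1A1, most of the vehicle sum, was 4.16-fold lower with cordyceps and 6.55-fold lower with sunitinib. DES was 2.73-fold higher with sunitinib and within 2-fold with cordyceps, and PDGFRB was within 2-fold in both. The part of all these markers in the results was not tested.

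All 12 member probes were well above background on all 3 arrays, so every member was measured in both comparisons. On the cordyceps array the members lay close to vehicle: 7 probes were higher and 5 lower, the median log2 ratio was 0.11, and none of the 12 was past 2-fold. Over all named probes compared, 2.8% were past 2-fold higher and 2.55% lower (19466 probes), and the median over the 16775 measured on both arrays was 0.01. The ratios of the 12 ran from −0.81 to 0.36. One probe, that of NFKB1, was lower by more than its spot error, and none was higher by more than it. Of the named probes measured on both arrays, 13.4% were lower by more than their error and 14.6% higher.

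On the sunitinib array 6 member probes were higher and 6 lower, with a median log2 ratio of −0.17 and a range from −1.25 to 0.58. One probe, again that of NFKB1, was past 2-fold lower and none past 2-fold higher. Over all named probes compared, 6.24% were past 2-fold lower and 6.18% higher (19614 probes). The median over the 16650 measured on both arrays was 0.00. By the spot error, 4 probes were lower (NFKB1, NFKBIA, NFKBIB by its coding probe, and TNFAIP3) and 1 was higher (RELA by A_23_P104689). Of the named probes measured on both arrays, 21.6% were lower by more than their error and 22.3% higher. These 2 comparisons share the vehicle array, so a low or high spot on it moves both the same way.

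**Figure D1:**
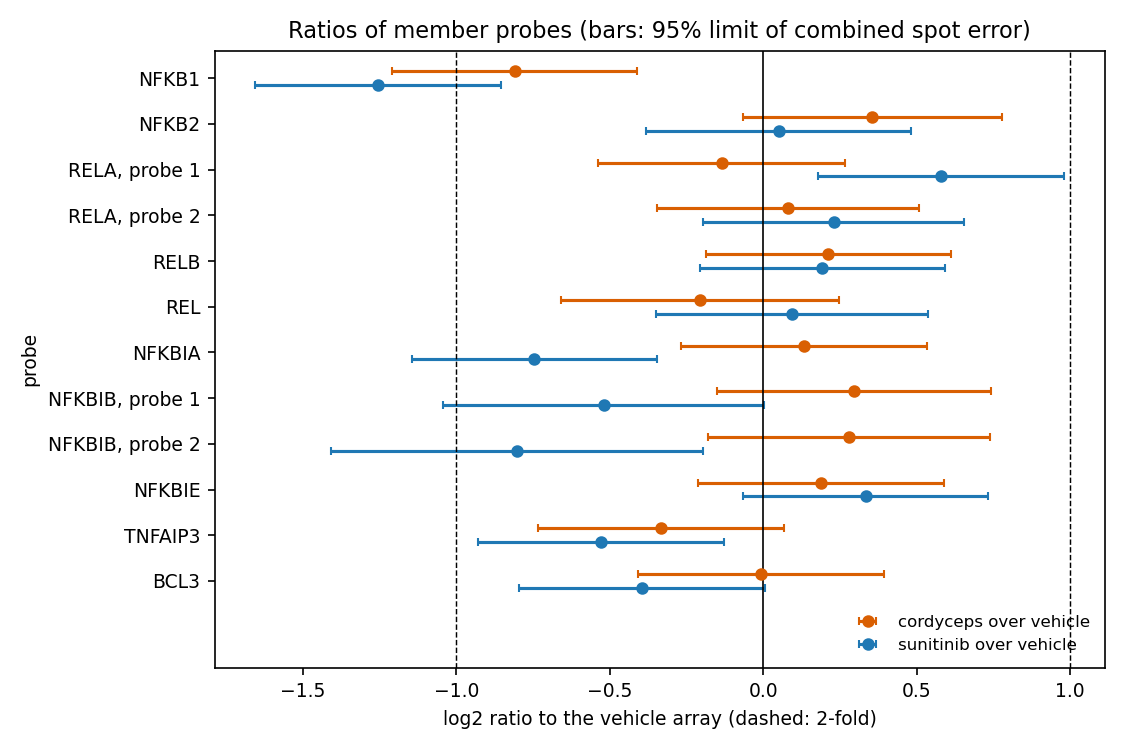
Log2 ratio of each of the 12 member probes over vehicle (horizontal axis) for the cordyceps and sunitinib arrays, with bars for the 95% limit of the combined spot error and dashed lines at 2-fold. Probe 1 and probe 2 are A_23_P104689 and A_33_P3209433 for RELA, and A_23_P330895 and A_33_P3343545 for NFKBIB. Only the sunitinib value of NFKB1, at −1.25, lies past a 2-fold line, and most of the other bars cross 0.

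NFKB1 encodes p105, the precursor of the DNA-binding subunit p50. Its probe (A_23_P30024, NM_003998) stood at 4.03 on the vehicle array, 3.22 on the cordyceps array and 2.78 on the sunitinib array. Both treated arrays were therefore below vehicle, and the sunitinib array was the lowest. The log2 ratio over vehicle was −0.81 for cordyceps, 1.75-fold lower, and −1.25 for sunitinib, 2.38-fold lower, each with a limit of 0.40. The sunitinib array was below the cordyceps array by a log2 ratio of −0.44, just past the limit of 0.40.

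RELA encodes p65, the subunit that carries the main transactivation domain and pairs with p50. By its brighter probe (A_23_P104689) it stood at 1.90 on the vehicle array, 1.76 on the cordyceps array and 2.48 on the sunitinib array. The sunitinib array was the highest, 0.58 above vehicle and 0.71 above cordyceps on the log2 scale, with limits of 0.40. The ratio over vehicle was within that limit with scaling to the array median (0.25) and with normexp background correction (0.16), and turned negative, to −0.49, where no scaling between arrays was applied. The other RELA probe (A_33_P3209433), of the same accession, stood at 0.03, 0.11 and 0.26, in the same order for sunitinib over vehicle, but its ratio of 0.23 was within its limit of 0.43. This second ratio turned negative, to −0.10, with scaling to the array median. For sunitinib the probes of RELA thus shared a direction at the 75th percentile and not a size, and for cordyceps over vehicle they had opposite signs, −0.13 and 0.08, both within their limits.

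The subunits of the noncanonical branch lay near vehicle. RELB, whose protein pairs with p52, had 5.54, 5.76 and 5.74 on the vehicle, cordyceps and sunitinib arrays. NFKB2, whose product p100 is processed to p52, had −0.13, 0.22 and −0.08. Their ratios over vehicle ran from 0.05 to 0.36, all within their limits of 0.40 to 0.43. REL encodes c-Rel, best known in lymphoid cells, and its probe had −0.16, −0.37 and −0.07, with ratios of −0.21 and 0.09 inside limits of 0.45 and 0.44. Its vehicle signal, 147, was below the array's 75th percentile but above the lowest signal called well above background there, 18.2. Of the 6 subunit probes, 5 were higher and 1 lower on the sunitinib array, and 4 of the 5 higher ratios were within the spot error and turned negative when each array was scaled to its median.

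**Figure D2:**
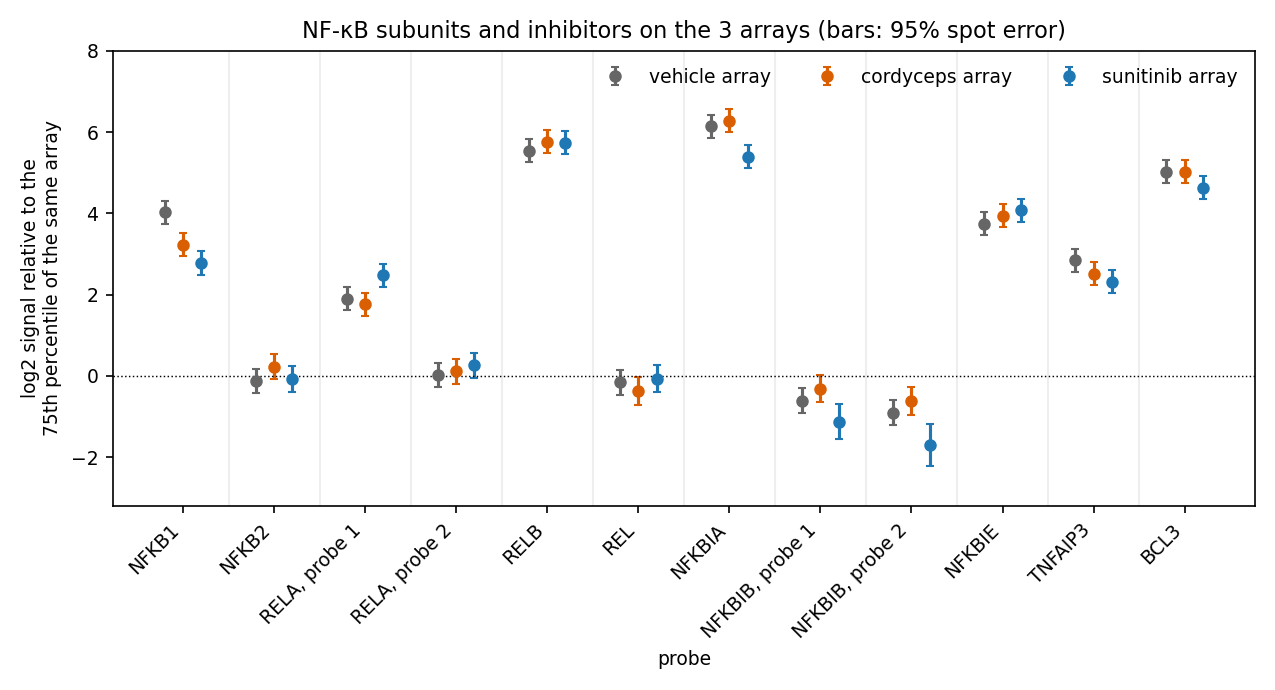
Level of each member probe on the 3 arrays, as the log2 signal relative to the array's 75th percentile, with bars for the 95% limit of the spot error. Each probe is read across its own 3 points, since levels of different probes cannot be compared; NFKB1 steps down from 4.03 to 3.22 and 2.78, and NFKBIA drops on the sunitinib array from 6.14 to 5.39.

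NFKBIA encodes IκBα, the inhibitor that is made anew after NF-κB is activated and returns it to the cytoplasm. Its probe (A_23_P106002, NM_020529) stood at 6.14 on the vehicle array, 6.27 on the cordyceps array and 5.39 on the sunitinib array. The sunitinib array was lower than the other 2, by 0.75 below vehicle and 0.88 below cordyceps on the log2 scale (limit 0.40), or 1.68-fold and 1.84-fold. The cordyceps ratio of 0.13 was within the limit, and its sign turned with quantile normalization, with normexp background correction and with no scaling.

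This probe was printed in 10 spots on each array, which gives its measurement error on the slide directly. Without the spots flagged by the software as outliers, 9 remained on the vehicle array and 8 on each of the others. Their raw signals ran from 11000.5 to 11965 with vehicle, 10381.3 to 11057.8 with cordyceps and 3189.76 to 3373.41 with sunitinib. Relative to the 75th percentile they ran from 6.06 to 6.18, from 6.23 to 6.33 and from 5.35 to 5.43, with SDs of 0.036, 0.031 and 0.027. The 3 sets did not overlap on this scale. The spots of an array share its RNA and its scaling, so they measure printing and hybridisation and not the spread between cultures.

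**Figure D3:**
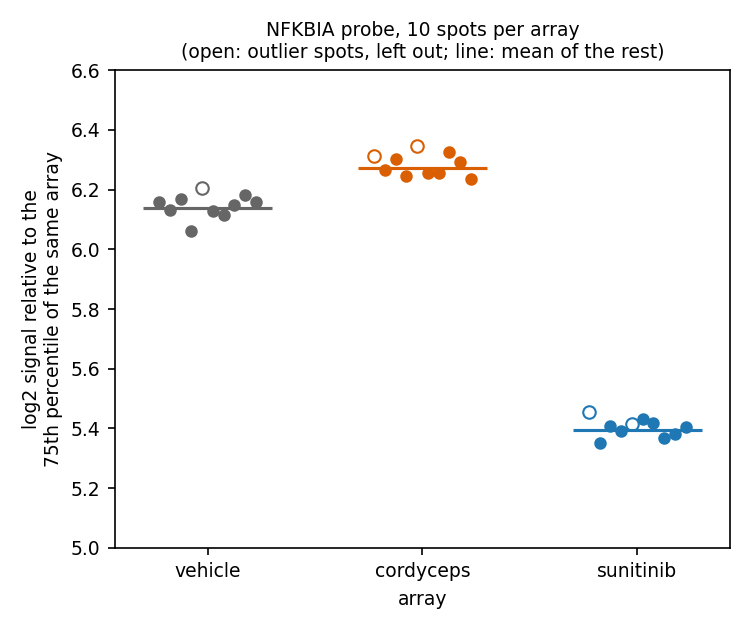
Log2 signal relative to the array's 75th percentile of every one of the 10 NFKBIA spots on each array. Filled circles are spots kept, open circles are spots marked as outliers, and lines are the means of the kept spots. The kept sunitinib spots sit between 5.35 and 5.43 and the kept vehicle spots between 6.06 and 6.18.

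NFKBIB encodes IκBβ. Its coding probe (A_33_P3343545) stood at −0.90, −0.63 and −1.71 on the vehicle, cordyceps and sunitinib arrays, and its noncoding-transcript probe at −0.61, −0.31 and −1.13. Both probes were lowest on the sunitinib array. Over vehicle the sunitinib ratios were −0.80, past its limit of 0.61, and −0.52, within its limit of 0.52, and against the cordyceps array they were −1.08 and −0.81. These were the dimmest member probes, with raw signals of 23.9 and 35.8 on the sunitinib array, where detection began at a signal of 18.3. With normexp background correction the sunitinib ratios shrank to −0.18 and −0.14. That correction added an offset of 50 to every signal, which is above both of these raw signals. Such an offset by itself makes the ratios of dim probes smaller.

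NFKBIE encodes IκBε and was the only inhibitor probe higher on the sunitinib array, at 3.75 with vehicle, 3.94 with cordyceps and 4.08 with sunitinib, with both ratios, 0.19 and 0.33, inside the limit of 0.40. That higher sunitinib value turned negative with normexp correction and with no scaling. BCL3 encodes a nuclear member of the IκB family that binds p50 and p52 dimers. It had 5.03, 5.02 and 4.63, level between vehicle and cordyceps and lower by −0.39 on the sunitinib array, just inside the limit of 0.40.

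TNFAIP3 encodes A20, a ubiquitin-editing enzyme that shuts the pathway off upstream of IκB kinase and whose gene is itself an NF-κB target. It had 2.85, 2.51 and 2.32 on the vehicle, cordyceps and sunitinib arrays, so both treated arrays were lower. Only the sunitinib ratio of −0.53 was past its limit of 0.40, and that for cordyceps was −0.33. Over the 6 inhibitor probes the median was 0.16 with cordyceps (4 higher, 2 lower) and −0.52 with sunitinib (1 higher, 5 lower). Over the 6 subunit probes it was −0.03 (3 higher, 3 lower) and 0.14 (5 higher, 1 lower), and with no scaling all 12 were lower with sunitinib. The array measures a mixture of all cells in the dish, and fewer cells with a transcript and less of it per cell cannot be told apart.

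The signs of the small ratios followed the scaling. With each array scaled to its median, the median of all probes moved by 0.22 (cordyceps) and −0.33 (sunitinib), and with no scaling by −0.26 and −1.07. The 12 members then split into 10 higher and 2 lower (cordyceps) and 2 and 10 (sunitinib) by the median, and into 3 and 9, and 0 and 12, with no scaling. NFKB1 was lower in both comparisons under each of the alternatives that give a ratio, from −1.07 to −0.59 with cordyceps and from −2.33 to −1.25 with sunitinib. TNFAIP3 (−0.59 to −0.11 and −1.60 to −0.52), and with sunitinib NFKBIA (−1.82 to −0.74), BCL3 (−1.47 to −0.39) and both NFKBIB probes (−1.88 to −0.14), also stayed lower. With cordyceps NFKB2 (0.10 to 0.58) and both NFKBIB probes (0.02 to 0.52) stayed higher.

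**Figure D4:**
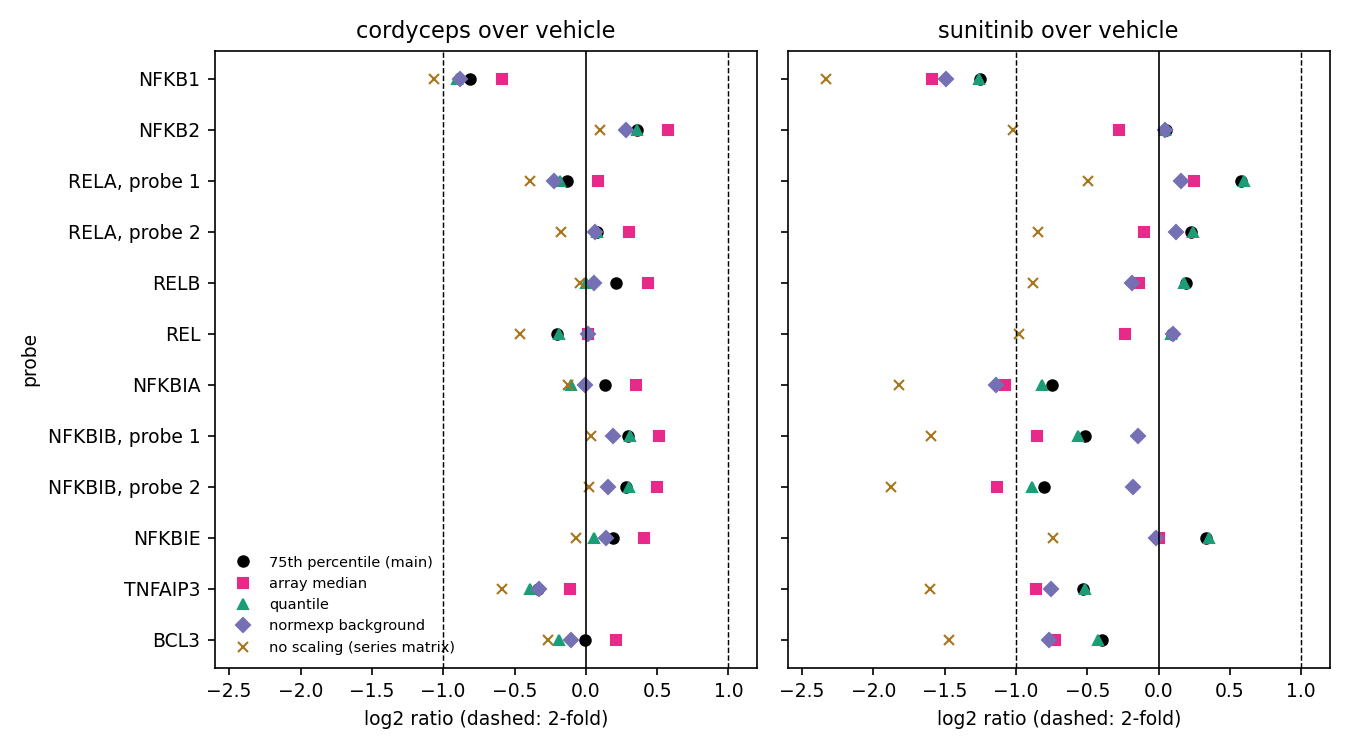
Log2 ratio over vehicle of each member probe with the 75th percentile, the array median, quantile normalization, normexp background correction and no scaling, for the cordyceps array (left) and the sunitinib array (right), with dashed lines at 2-fold. The whole set of points shifts with the scaling, and NFKB1 stays below 0 throughout, from −2.33 to −1.25 with sunitinib.

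The rest of the pathway was read from 5 lists of genes that pass the signal to NF-κB, modify it or respond to it, with each gene represented by its brightest probe. By that rule the 10 members had 0 of 10 past 2-fold with cordyceps and 1 lower, NFKB1, with sunitinib. Over all genes compared with cordyceps, 2.99% were past 2-fold higher and 2.76% lower (14786 genes), and with sunitinib 6.5% higher and 6.53% lower (14912 genes), with medians of 0.00. The receptor-proximal adaptors and kinases, from TNFRSF1A to the IκB kinase subunits, had no gene of 16 past 2-fold on either array, and medians of −0.16 and −0.05. The ubiquitin-editing list had 1 of 11 past 2-fold, RBCK1, a subunit of the linear ubiquitin ligase, at 2.01-fold higher with cordyceps (its 3 probes ran from 0.63 to 1.01 on the log2 scale).

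In the noncanonical list 2 of 8 genes were past 2-fold lower with sunitinib and none with cordyceps. TNFRSF12A, the receptor for the cytokine TWEAK, stood at 7.61, 7.94 and 5.88 on the vehicle, cordyceps and sunitinib arrays, and BIRC3, a ubiquitin ligase at the TNF receptor, at 4.32, 4.09 and 2.58, so that each was lower with sunitinib by 3.31-fold and 3.33-fold. Among 7 other IκB-family and nuclear regulators, NFKBIZ, which encodes the nuclear protein IκBζ, was 2.60-fold lower with sunitinib, from 2.53 to 1.15. IKBKE, an IκB-kinase-related kinase, was 2.42-fold higher with cordyceps from a dim raw signal of 35.3 with vehicle, and its log2 ratio of 1.27 had a limit of 0.96.

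Of 34 textbook NF-κB target genes, 31 could be compared with cordyceps and 32 with sunitinib. With cordyceps 3 were past 2-fold higher and 2 lower, and the median was 0.05. LCN2, a secreted siderophore-binding protein, was 3.46-fold higher, and the cytokines IL1B and CSF2 were 2.06-fold and 2.03-fold higher. The leukocyte adhesion gene VCAM1 was 2.77-fold lower and the monocyte chemokine CCL2 was 2.42-fold lower. The targets past 2-fold thus lay in both directions, and the count higher was 1 with quantile normalization, normexp correction or no scaling and 5 with scaling to the array median.

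With sunitinib 19 of the 32 targets were past 2-fold lower, beside 6.53% of all genes, and the median was −1.33. The list was chosen with earlier results of these data known, so its excess over all genes is not independent of them. The count of lower targets ran from 16 to 25 over the alternatives. Among the 19, PTGS2 was a bound (−1.30, limit 2.86), and 18 were left where both arrays had to be well above background. CSF2, which encodes the growth factor GM-CSF, stood at 3.79 on the vehicle array, 4.81 on the cordyceps array and −1.51 on the sunitinib array. Its log2 ratio over vehicle was −5.30 (limit 0.58), from a dim raw signal of 27.4 with sunitinib, where detection began at 18.3. CCL2 stood at 6.25, 4.97 and 2.50, a ratio of −3.75. CXCL8, the neutrophil chemokine, and the cytokine IL1A were lower by −3.23 and −2.81. The 1 target past 2-fold higher was CCL5, named after its value was seen. Its raw signals were dim, 12.2 with vehicle, which was not well above background, and 24.7 with sunitinib. Set against the lowest level called above background with vehicle, it was 2.86-fold higher, a log2 ratio of 1.52 with a limit of 1.06. The other 12 targets counted as within 2-fold, 1 of them with no ratio, and lay in both directions. Among them TNFAIP8 was at −0.74 (limit 0.40), with its other probe at −1.46, and SOD2, a mitochondrial superoxide dismutase, was at −0.28. The stress gene GADD45B and the cytokine CSF1 were each at 0.65. These 4 were chosen after their values were seen. Of all 32 targets, 25 were lower and 6 higher. Whether the list and the members differ was not tested, since 1 array per condition allows no test.

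**Figure D5:**
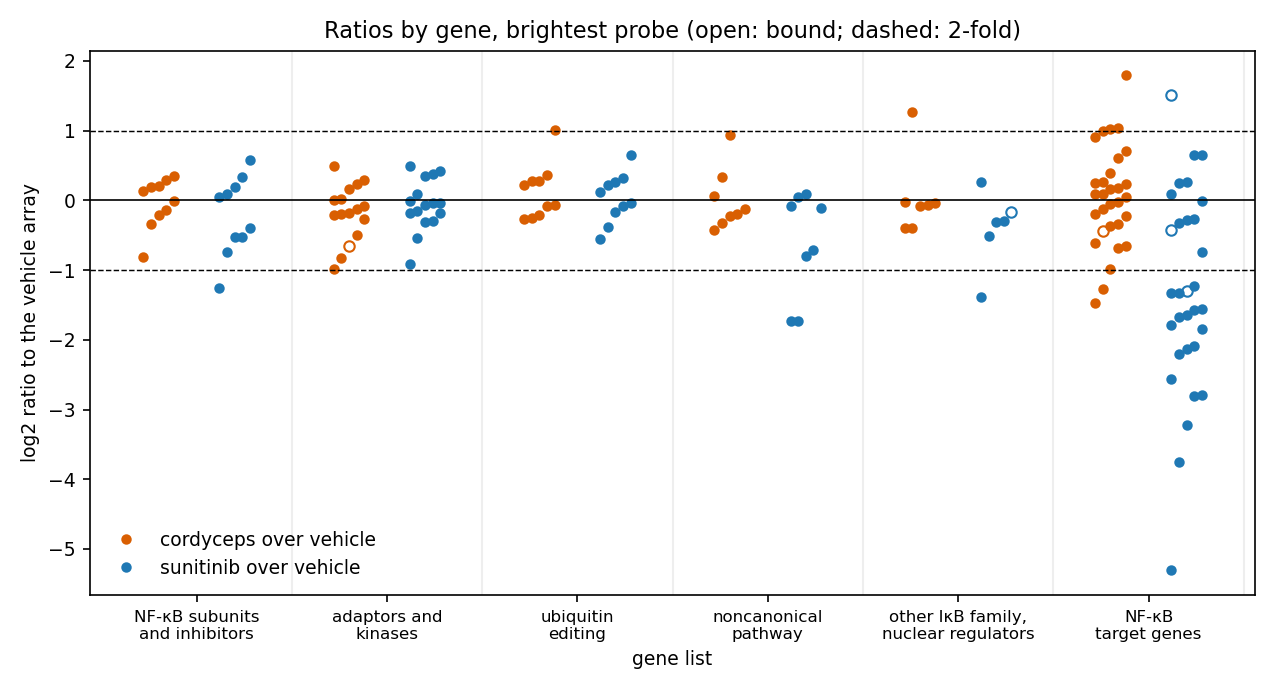
Log2 ratio over vehicle of each gene in the member group and the 5 lists, for cordyceps and sunitinib, with 1 point per gene, open circles for values that are bounds and dashed lines at 2-fold. The sunitinib values of the target list reach down to −5.30 with a median of −1.33, and those of the members run with a median of −0.17.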

How the data were processed

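RNA was labelled with Cy3 and hybridised to one-colour Agilent arrays of 62976 spots. The deposited files hold spot intensity values from Feature Extraction 11.5.1.1, made by the authors, with the array annotated on hg19. The study's methods describe a red over green ratio and SAM with a 2-fold limit, which could not be applied to one-colour files. The processed signal (background-subtracted by the software) was averaged over the spots of a probe, with control spots and outlier spots left out, divided by the array's 75th percentile and taken to log2. A probe was compared where it was well above background on at least 1 array of the pair, and was given as a bound where it was not on the other. Genes came from RefSeq accessions without versions. Promoters were those of the RefSeq table for GRCh38.p14.

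Members and lists were chosen with earlier results of these data known. List genes were named where past 2-fold and well above background on both arrays, up to 4 in each direction. Python 3.11.15, pandas 2.3.3 and limma 3.58.1 (normexp only, with an offset of 50) were used, and the counting was tested on simulated data. The number of arrays limits the precision. The values of the series matrix were the same mean signals, with no scaling between arrays, within 0.01% for 99.9% of probes on each array, with medians of 14.4, 10.3 and 8.58, so that their scale is linear and uncentred. In all 11 alternatives were tried. One leukocyte marker of the original list is not reported here.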

Additional observations from a re-analysis of the deposited data

How the results depend on the processing

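Counts past 2-fold depended on the scaling and on the background correction. Scaling to the array median gave 5 target genes higher with cordyceps in place of 3, and 3 member probes or 2 member genes lower with sunitinib in place of 1 each. Quantile normalization gave 1 target higher with cordyceps. The unscaled series matrix values gave 1 target higher, 1 member probe and 1 member gene lower with cordyceps in place of 0, and with sunitinib 0 targets higher in place of 1, 7 member probes and 6 member genes lower. Normexp correction gave 1 target higher with cordyceps, and with sunitinib 0 targets higher, 2 member probes and 2 member genes lower. Without a filter or floor 2 targets were higher with sunitinib, and with both arrays required to be well above background 0 were. The other counts stayed within 1.5 times their value. The ratio of the RELA probe A_23_P104689 with sunitinib, 0.58, was the only member ratio past its error limit that changed sign, to −0.49 with the series matrix values. The cause of each difference was not tested. No paired analysis was possible because each group had 1 array. Feature Extraction's spot error leaves out the spread between cultures, so a small ratio cannot be told apart from the difference between any pair of dishes.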
